A study of Mus musculus with 12 samples.

Results

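The genes examined were 10 that encode chains of hematopoietic cytokine receptors: Csf3r, Csf2ra, Csf2rb, Csf1r, Il3ra, Il6ra, Il6st, Ifngr1, Il2rg and Tgfbr1. They were found by name among the array's own gene names, which gave 14 of the 39429 probes on the array; 7 of the 10 genes had a single probe. All RNA came from LSK cells of DBA2/J males. LSK cells carry Sca-1 and Kit but no marker of a mature lineage, and they include stem cells and early progenitors. There were 4 groups with 3 arrays in each. One group was LSK cells of bone marrow after PBS, and the others were LSK cells from blood after a mobilizing treatment. The treatments were G-CSF in 9 injections over 5 days, AMD3100 for 1 hour, and CWHM-823 given together with tGro-b, for which no time was found in the labels. G-CSF is itself the ligand of the receptor encoded by Csf3r. AMD3100 blocks the chemokine receptor CXCR4, CWHM-823 inhibits the integrin VLA-4, and tGro-b stimulates the chemokine receptor CXCR2. Blood LSK cells of untreated mice were not among the samples, so a difference from marrow joins the treatment and the move into blood, and these cannot be told apart. The agents also differ in the time over which they acted. RNA was measured in bulk, so a change in RNA per cell and a change in which cells were sorted cannot be told apart.

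Most of these receptors have no enzyme of their own. When the ligand joins 2 or more chains, kinases of the JAK family bound to the chains phosphorylate each other, and STAT transcription factors carry the signal to the nucleus. Specificity often lies in a private alpha chain and signalling in a shared chain. Csf2rb is the shared beta chain of the receptors for GM-CSF, IL-3 and IL-5, Il6st (gp130) that of the IL-6 family, and Il2rg the common gamma chain of the lymphoid interleukins. Csf1r differs in carrying its own tyrosine kinase, and Tgfbr1 is a serine/threonine kinase that acts on SMAD proteins.

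Levels are log2 processed signal minus the 75th percentile of the same array, so 0 is the signal that 75% of probes do not exceed. Probes hybridize with different strength, and the level of one probe was not set against that of another as an amount of RNA. The 75th percentile ran from 1146 to 2724 signal units over the 12 arrays, and 70.8 to 83.4% of probes were above background. Of 12 LSK markers, 11 or 12 were above background on every array, Slamf1 being the one below it on the AMD3100 arrays. So were 9 or 10 of 10 NK cell markers, and this check therefore cannot show that mature cells were absent. Kit read 3.05 to 3.64 over the arrays. Ly6a, which encodes Sca-1, read -0.97, -0.76 and -1.10 in marrow and 0.81, 0.61 and 0.69 after G-CSF. It lay between -1.38 and -0.25 in the other blood groups. Marrow array 3 stood apart in neutrophil transcripts, with a summed signal of 32.2 times the 75th percentile over 10 markers, against 2.05 to 4.38 on the other 11 arrays. Of the 14 probes of the 10 receptor genes, 12 were above background on all 12 arrays and 13 entered the tests, because some group had them above background on each of its 3 arrays. For the other, the Tgfbr1 probe at transcript position 2815, 1 array was above background.

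The array's only probe named Csf3r, the receptor of G-CSF, cannot be read as that gene's level. Its position in the scanner files is chr19:60157892-60157951 of the mm9 mouse assembly, while the gene lies on chromosome 4. Over the array, 829 of 29187 probes with a position (2.84%) lay on another chromosome than the gene table gave. The last 30 of the probe's 60 bases, numbered 31 to 60 from the 5′ end, are shown. Every 20-base stretch of the probe that was found in probes of other names lies in them. The 20 bases shared most often (40 to 59) are in capitals.
Csf3r probe, bases 31 to 60: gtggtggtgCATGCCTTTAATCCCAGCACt
Letters of this kind are familiar as the start of the B1 repeat, a short interspersed element spread over the mouse genome. The capital letters occurred, on one strand or the other, in 3 probes with other names: Nxnl1, Gm1305 and the unnamed transcript TC1653005. With stretches of 16 bases, 10 probes of other names shared part of the Csf3r probe, 6 on the same strand and 4 on the opposite strand. Of those 10, 6 were among the brightest 5% of all probes tested. Sharing as such was not rare: 7.25% of all probes held a 20-base stretch found on the same strand in a probe of another name. For stretches of 16 bases this share was 15.6%. No other receptor probe examined here shared a 20-base stretch with a probe of another gene.

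**Figure D1:**
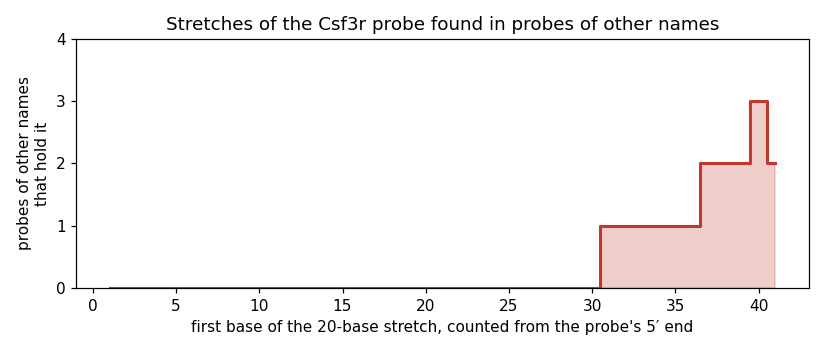
Number of probes of other names (vertical axis) that hold each 20-base stretch of the Csf3r probe on either strand, by the first base of the stretch within the probe (horizontal axis, 60-base probe). The first 30 stretches were found in 0 other probes, and the stretch that starts at base 40 was found in 3.

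The signal of the Csf3r probe was high on every array. It was 5.82, 6.17 and 6.21 in marrow, 5.21, 5.69 and 5.41 after G-CSF, 6.10, 6.28 and 6.14 after AMD3100, and 5.49, 5.78 and 6.09 after CWHM-823+tGro-b. The G-CSF arrays lay below all marrow and AMD3100 arrays and overlapped the CWHM-823+tGro-b arrays. Against AMD3100 the difference was -0.74 ± 0.24 (± gives the standard error of the limma fit, n = 3 arrays per group, here and below; adjusted p = 0.0397), and it was lower on 3 of 3 slides. That call was kept in 12 of 22 alternative settings. It was lost under quantile normalization, where the difference was -0.23 (adjusted p = 0.456), and in the authors' normalized table, where it was -0.22 (adjusted p = 0.489). It was also lost without marrow array 2, G-CSF array 1 or 3, or any 1 AMD3100 array (-0.77 to -0.62, adjusted p = 0.0547 to 0.142). Against marrow it was -0.63 ± 0.24 (adjusted p = 0.192; 0.0340 with the slide as a block). The 3 probes that share the capital letters differed between G-CSF and AMD3100 by -0.78 (Gm1305, adjusted p = 0.0836), -0.63 (TC1653005, adjusted p = 0.0535) and -0.63 (Nxnl1, adjusted p = 0.0839). Whether the shared letters account for the signal of the Csf3r probe was not tested. The 5 genes whose levels ran most nearly alongside it over the 12 arrays were Cd4, Muc5b, Zap70, Kcnj4 and Clca3a1, with a Pearson r of 0.969 to 0.978, given as a description over arrays that share slides.

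Csf2rb, the beta chain through which GM-CSF, IL-3 and IL-5 signal, gave the largest changes of the 10 genes, and both of its probes showed them. Its signal was 3.88- to 6.21-fold higher in LSK cells mobilized by G-CSF than in marrow and the other blood groups. The probes lie on the gene's own chromosome, at chr15:78179504-78179563 (transcript position 2837) and chr15:78181168-78181227 (transcript position 4501). No exon or UTR annotation of mm9 was used here. Because Csf2rb has a near-identical neighbour, Csf2rb2, whose product serves as the beta chain of a receptor for IL-3 alone, 30 bases from the middle of the probes are shown to let the pair be compared.
Csf2rb probe at 2837, bases 16 to 45: ccaggcgccagccattcagtttttcaagtc
Csf2rb probe at 4501, bases 16 to 45: cagacatagaatgtggcagatcaaatgtcc
Csf2rb2 probe at 4491, bases 16 to 45: gatcaagtgttccttggtctatgttcactg
In the best ungapped overlap of at least 30 bases, the Csf2rb probe at 4501 and the Csf2rb2 probe at 4491 matched at 31 of 42 positions (73.8%). The other 3 pairings of a Csf2rb with a Csf2rb2 probe matched at 40.0 to 48.4%. RNA of one gene on the other's probes was not measured, so the split of signal between the pair is uncertain.

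The probe at 2837 had levels of 1.57, 1.16 and 1.88 in marrow and 3.95, 3.35 and 4.06 after G-CSF. After AMD3100 it had 1.73, 1.60 and 2.16, and after CWHM-823+tGro-b 1.50, 0.98 and 1.61. All 3 G-CSF arrays were therefore above all 9 others. The fold change against marrow was 4.76 (log2 difference 2.25 ± 0.30, 95% interval 1.60 to 2.90, adjusted p = 0.00206). It was higher on 3 of 3 slides.

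At the probe at 4501 the levels were 0.82, 0.55 and 0.27 in marrow and 3.37, 2.84 and 3.15 after G-CSF. They were 0.65, 0.50 and 0.30 after AMD3100 and 1.02, 0.56 and 0.23 after CWHM-823+tGro-b. The G-CSF arrays again stood clear of the rest, and the other 3 groups overlapped one another. Against marrow the fold change was 5.95 (2.57 ± 0.27, 95% interval 1.98 to 3.16, adjusted p = 0.000402).

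G-CSF blood also exceeded the other mobilized cells at both Csf2rb probes. Against AMD3100 the log2 differences were 1.95 ± 0.30 (adjusted p = 0.00446) and 2.63 ± 0.27 (adjusted p = 0.000663). Against CWHM-823+tGro-b they were 2.42 ± 0.30 (adjusted p = 0.00246) and 2.51 ± 0.27 (adjusted p = 0.000943). AMD3100 and CWHM-823+tGro-b against marrow gave values between -0.17 and 0.29, none of which passed (at the probe at 2837, 95% interval -0.35 to 0.94 for AMD3100 and -0.82 to 0.48 for CWHM-823+tGro-b). These comparisons share the G-CSF or the marrow arrays. Without marrow array 3 the differences between G-CSF and marrow were 2.42 (adjusted p = 0.00542) and 2.44 (adjusted p = 0.00303).

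Mast cells and basophils also express Csf2rb. Of their 10 markers, 6 to 9 were above background on the G-CSF arrays and 6 to 8 on the marrow arrays, and Ms4a2, the beta chain of the IgE receptor, was above it on 0 of the 12. Fcer1a, another of the 10, was above background on every G-CSF array and on no marrow or AMD3100 array. After CWHM-823+tGro-b it was above background on arrays 1 and 2 but not on array 3. The summed signal of the 10 markers was 8.86 to 10.8 times the 75th percentile after G-CSF and 7.37 to 7.51 in marrow. It was 7.61 to 16.7 after AMD3100 and 8.33 to 11.0 after CWHM-823+tGro-b, groups in which Csf2rb did not pass against marrow. Of 7 of these markers that could be tested, 2 rose in G-CSF blood against marrow, Hdc (2.76, adjusted p = 0.00572) and Cpa3 (1.82, adjusted p = 0.00732), and 2 rose in AMD3100 blood. With the slide as a block 3 rose in G-CSF blood. Over all probes 1.28% rose there, and 8.36% with the block. Their part in the Csf2rb result was not tested.

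Csf2rb2 moved with Csf2rb. Its levels on the brighter probe, at 4491, were -0.79, -0.57 and -0.47 in marrow and 2.56, 2.45 and 2.98 after G-CSF. They lay between -0.85 and -0.03 on the 6 other blood arrays, below every G-CSF array. The difference between G-CSF and marrow was 3.27 ± 0.24 (9.68-fold, adjusted p = 2.73e-05), and its second probe, at 3520, gave 1.14 ± 0.29 (adjusted p = 0.0710). Against AMD3100 and CWHM-823+tGro-b that second probe gave 1.20 (adjusted p = 0.0156) and 1.50 (adjusted p = 0.0396). Over the 12 arrays the genes that ran most nearly alongside the brighter Csf2rb probe were Ass1, Csf2rb2 and Ptms (r of 0.964 to 0.971). The promoter table held no window for Csf2rb. The 250 bases before the start of Csf2rb2 (GRCm38.p6, chr15:78305722-78305971, minus strand, RefSeq) are shown because both of its probes were higher after G-CSF than in the other blood groups, with matches to 2 of 3 motifs searched on both strands in capitals.
Csf2rb2 upstream: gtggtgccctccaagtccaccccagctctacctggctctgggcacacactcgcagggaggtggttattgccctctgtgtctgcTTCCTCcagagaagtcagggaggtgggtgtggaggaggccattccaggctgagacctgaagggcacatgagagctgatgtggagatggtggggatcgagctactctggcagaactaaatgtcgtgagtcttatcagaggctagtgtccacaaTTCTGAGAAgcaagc
TTCNNNGAA, the letters preferred by STAT factors, began 15 bases before the start and occurred in 7.02% of 32851 upstream windows of that length. GAGGAA, the core of sites for ETS factors such as PU.1, was found on the opposite strand 167 bases before the start and occurred in 23.3% of windows. TTGCNNAA, a C/EBP half-site pattern, was not in the window and occurred in 9.56% of windows. Of the other receptor windows read, Csf2ra held GAGGAA 2 times, Csf3r, Il6ra and 1 of 2 windows of Tgfbr1 held it 1 time each, and Il3ra held TTGCNNAA 1 time. The upstream windows of Il2rg, Ifngr1 and Il6st held none of the 3 motifs. A match describes letters only, and binding was not measured.

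Csf2ra and Il3ra are the private alpha chains that pair with Csf2rb, for GM-CSF and IL-3. Neither passed in any of the 7 comparisons. Csf2ra, probed at chr19:61300336-61300395, had levels of 2.36, 2.17 and 1.62 in marrow, 1.83, 1.56 and 1.44 after G-CSF, 1.91, 1.53 and 1.64 after AMD3100, and 2.20, 1.69 and 2.03 after CWHM-823+tGro-b. All 4 groups overlapped. G-CSF against marrow was -0.44 ± 0.26 (95% interval -1.01 to 0.13, adjusted p = 0.345). Il3ra, at chr14:15187898-15187957, lay between 1.09 and 1.92 on all 12 arrays, and G-CSF against marrow was 0.23 ± 0.26 (95% interval -0.34 to 0.80, adjusted p = 0.590). The beta chain therefore differed between G-CSF and marrow by more than its replicate spread at both probes. The intervals of the alpha chains had upper ends of 0.13 (Csf2ra) and 0.80 (Il3ra), while that of Csf2ra reached down to -1.01.

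**Figure D2:**
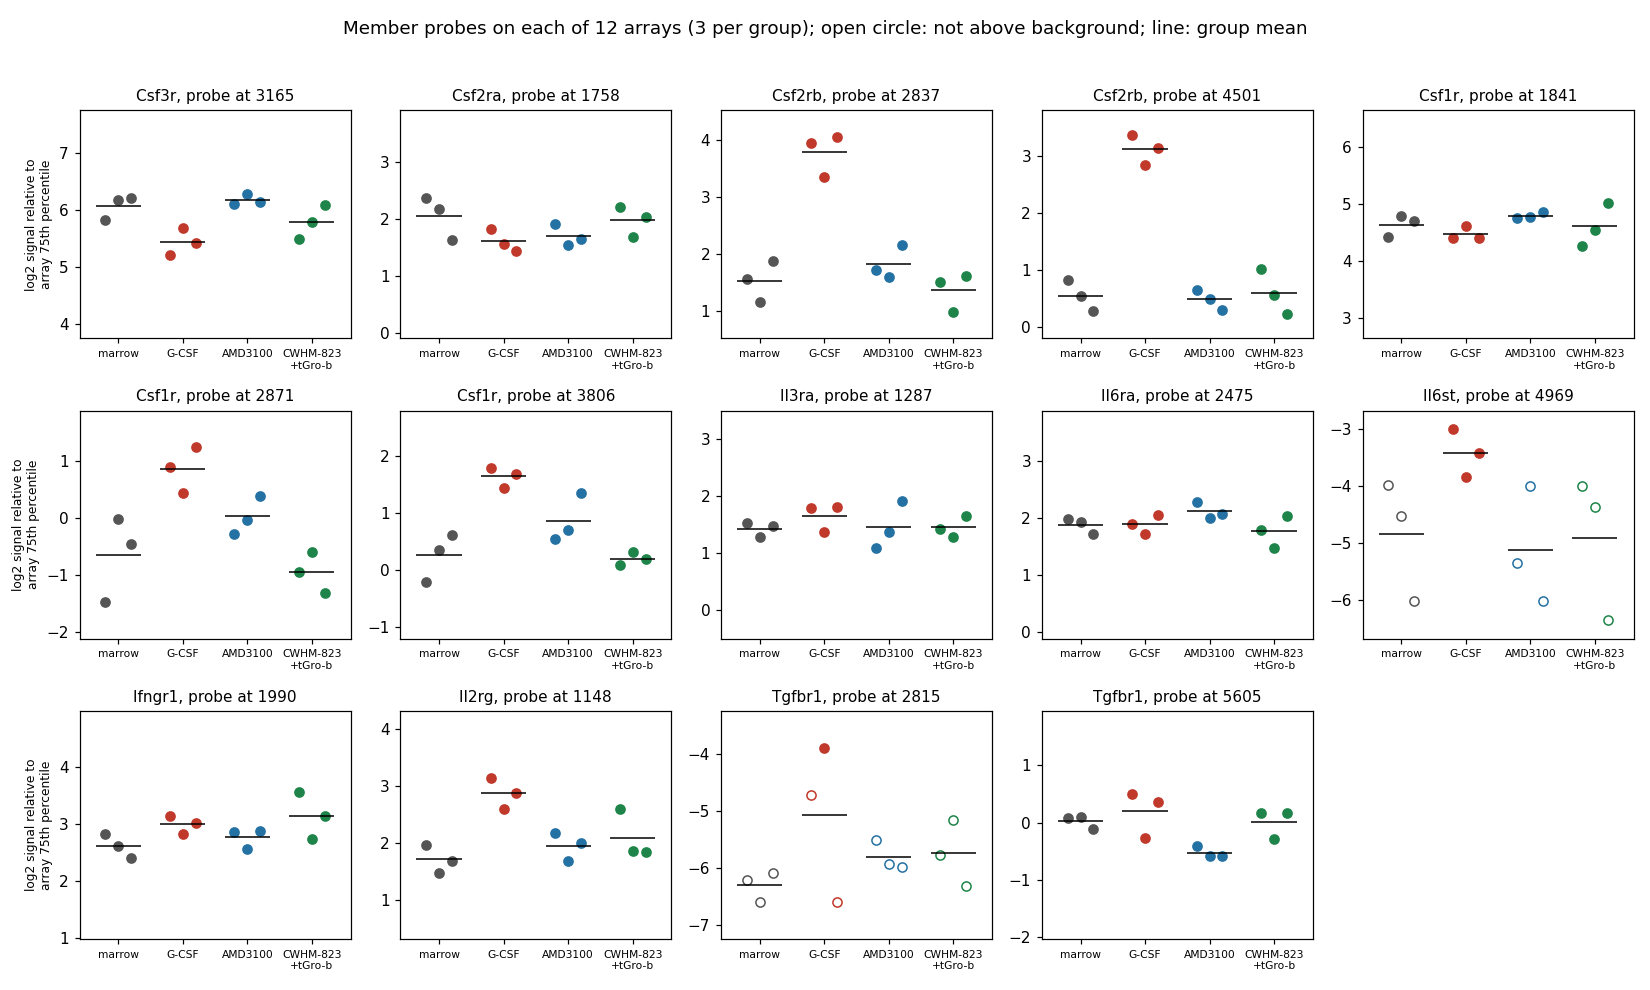
Level of each receptor probe (vertical axis, log2 signal relative to the array's 75th percentile; scales differ between panels) on the 3 arrays of each group (horizontal axis). Filled circles are above background, open circles are not, and lines are group means. At both Csf2rb probes the G-CSF arrays, at 2.84 or more, lie above all others, and Il6st is above background only on the 3 G-CSF arrays.

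Csf1r, the tyrosine kinase receptor of CSF-1 (M-CSF), gave different answers at its 3 probes. They lie on chromosome 18, at transcript positions 1841, 2871 and 3806. The brightest, at 1841, stayed between 4.26 and 5.02 on all 12 arrays and gave -0.17 ± 0.24 for G-CSF against marrow (adjusted p = 0.668). At 3806 the levels were -0.21, 0.36 and 0.62 in marrow and 1.80, 1.43 and 1.69 after G-CSF. They were 0.54, 0.71 and 1.36 after AMD3100 and 0.09, 0.33 and 0.19 after CWHM-823+tGro-b, so that all other arrays lay below the G-CSF ones. That probe was 2.61-fold higher than in marrow after G-CSF (1.38 ± 0.29, adjusted p = 0.0310) and 2.71-fold higher than after CWHM-823+tGro-b (1.44 ± 0.29, adjusted p = 0.0469).

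The Csf1r probe at 2871 had levels of -1.48, -0.03 and -0.46 in marrow, 0.90, 0.43 and 1.23 after G-CSF, -0.28, -0.04 and 0.39 after AMD3100, and -0.96, -0.60 and -1.32 after CWHM-823+tGro-b. Its G-CSF arrays were above the rest as well. The differences were 1.51 ± 0.38 against marrow (adjusted p = 0.0694; 0.0273 with the slide as a block) and 1.81 ± 0.38 against CWHM-823+tGro-b (adjusted p = 0.0624; 0.0394 with the slide as a block). Against AMD3100 the probe at 3806 gave 0.77 ± 0.29 (adjusted p = 0.0575; 0.0177 with the slide as a block). The call at 3806 against marrow was lost without marrow array 1 (1.15, adjusted p = 0.124), marrow array 2 (1.43, adjusted p = 0.0993), G-CSF array 1 (1.30, adjusted p = 0.138) or G-CSF array 3 (1.36, adjusted p = 0.118). In the authors' normalized table it was 1.26 (adjusted p = 0.0565). The call against CWHM-823+tGro-b was kept in 7 of 21 settings (1.32 to 1.54, adjusted p = 0.0147 to 0.207). It was lost without marrow array 2 or 3, AMD3100 array 1 or 2, or any 1 array of G-CSF or CWHM-823+tGro-b.

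The probe at 1841 holds the trinucleotide CTG 6 times, and 0.241% of all probes hold it at least as often, against 2 times in each of the other Csf1r probes. The single Il3ra probe, also flat over the arrays, holds it 5 times, and 0.997% of all probes hold it at least as often. G and C made up 46.7% of the bases at 1841, 45% at 2871 and 41.7% at 3806. What the CTG count means for the signal of either probe was not tested. No probe of another gene shared a 16-base stretch with any of the 3. Which of them follows the Csf1r transcript was not tested. Of 14 monocyte and macrophage markers, a list to which Csf1r itself belongs through the bright probe at 1841, 11 to 13 were above background on every array, and Mrc1 on 0 of the 12. Their summed signal was 33.8 to 36.0 times the 75th percentile after G-CSF and 29.7 to 37.4 in marrow, ranges that overlap. Of 13 of them that could be tested, 1 rose after G-CSF, Cd14 (1.71, adjusted p = 0.0240). With the slide as a block 4 rose and 1 fell. Over all probes 1.28% rose without the block, and with it 8.36% rose and 10% fell.

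**Figure D3:**
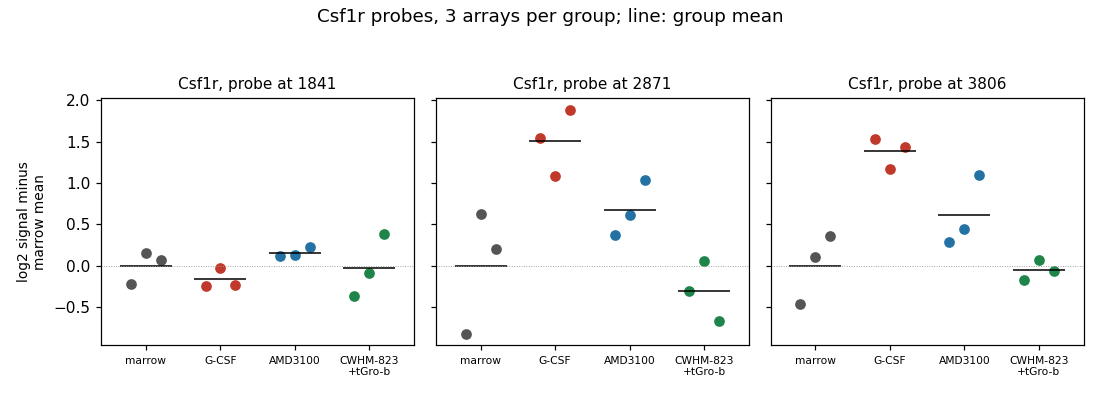
Signal of the 3 Csf1r probes on each array, as log2 difference from the probe's own marrow mean (vertical axis), for the 3 arrays of each group (horizontal axis); lines are group means. The G-CSF mean is 1.51 and 1.38 above marrow at the probes at 2871 and 3806, and -0.17 at the probe at 1841.

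The IL-6 receptor pairs a private chain, Il6ra, with the signal transducer Il6st. Il6ra (chr3:89674054-89674113) had 1.98, 1.93 and 1.73 in marrow, 1.90, 1.72 and 2.05 after G-CSF, 2.28, 1.99 and 2.07 after AMD3100, and 1.80, 1.48 and 2.04 after CWHM-823+tGro-b. It did not pass in any comparison, and its G-CSF arrays overlapped every other group. The difference between G-CSF and marrow was 0.01 ± 0.23 (95% interval -0.48 to 0.51, adjusted p = 0.973).

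Il6st, probed at chr13:113296586-113296645, was near the lower limit of the array. It was above background on the 3 G-CSF arrays, at -3.00, -3.85 and -3.42, and on 0 of the other 9. Taking each unseen value as the lowest signal above background on its array, or the probe's own signal if higher, Il6st was at least 1.58-fold higher after G-CSF than in marrow, at least 1.16-fold higher than after AMD3100 and at least 1.59-fold higher than after CWHM-823+tGro-b. Il6st entered the tests only through the G-CSF arrays on which it was seen, so its tests are not read as support. The fit's adjusted p values were 0.274, 0.0763 and 0.493, and 0.0185 for AMD3100 with the slide as a block. Other parts of this long transcript were not probed.

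Il2rg, the common gamma chain of the receptors for IL-2, IL-4, IL-7, IL-9, IL-15 and IL-21, was higher after G-CSF. Its probe (chrX:98460130-98460189) read 1.97, 1.48 and 1.67 in marrow and 3.14, 2.60 and 2.87 after G-CSF. It read 2.17, 1.68 and 1.99 after AMD3100 and 2.59, 1.85 and 1.83 after CWHM-823+tGro-b. The lowest G-CSF array was just above the highest of the others, at 2.60 against 2.59. The difference passed against AMD3100 (0.92 ± 0.28, 1.90-fold, adjusted p = 0.0319). Against marrow it was 1.16 ± 0.28 (95% interval 0.55 to 1.78, adjusted p = 0.0606; 0.00412 with the slide as a block), and against CWHM-823+tGro-b 0.78 ± 0.28 (adjusted p = 0.372; 0.0417 with the slide as a block). The difference was higher on 3 of 3 slides in each of these comparisons. The call against AMD3100 was lost under quantile normalization (0.78, adjusted p = 0.0535) and in the authors' normalized table (0.79, adjusted p = 0.0608). It was also lost without G-CSF array 1, G-CSF array 3, or any 1 AMD3100 array (0.79 to 1.04, adjusted p = 0.0502 to 0.120). Nptn, Eif2b4 and Ptpn6 ran most nearly alongside Il2rg (r of 0.971 to 0.974 over 12 arrays); Ptpn6 is the phosphatase SHP-1, which dampens cytokine receptor signalling.

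Ifngr1, the ligand-binding chain of the interferon-gamma receptor, did not pass in any of the 7 comparisons. Its probe (chr10:19329923-19329982) read 2.82, 2.61 and 2.40 in marrow, 3.14, 2.81 and 3.01 after G-CSF, 2.85, 2.56 and 2.88 after AMD3100, and 3.55, 2.73 and 3.13 after CWHM-823+tGro-b. The largest difference from marrow was 0.53 ± 0.26 after CWHM-823+tGro-b (95% interval -0.03 to 1.09, adjusted p = 0.887). Its partner chain Ifngr2 gave 0.59 ± 0.38 for G-CSF against marrow (adjusted p = 0.375).

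Tgfbr1, the kinase chain of the TGF-beta receptor, was measured by its probe at transcript position 5605 (chr4:47427736-47427795). The levels were 0.08, 0.10 and -0.11 in marrow, 0.51, -0.27 and 0.37 after G-CSF, -0.41, -0.59 and -0.59 after AMD3100, and 0.16, -0.29 and 0.16 after CWHM-823+tGro-b. The AMD3100 arrays were below all others. G-CSF exceeded AMD3100 by 0.73 ± 0.25 (1.66-fold, adjusted p = 0.0479), a call kept in 9 of 22 settings, with adjusted p from 0.00909 to 0.174. It was lost without any 1 array of marrow, G-CSF 1 or 3, CWHM-823+tGro-b 1 or 3, or any 1 AMD3100 array (0.58 to 0.79). AMD3100 against marrow was -0.55 ± 0.25 (adjusted p = 0.264). The second probe, at 2815 (chr4:47424946-47425005), was too dim to test.

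Counted over the 13 probes tested, 3 passed for G-CSF against marrow, all higher, where 1.81% of all 29497 probes passed and 1.28% were higher. They were both Csf2rb probes and the Csf1r probe at 3806. With the slide as a block 6 passed, as did 18.4% of all probes: 5 were higher, against 8.36% of all probes, and 1 was lower, against 10% of all. The groups did not overlap at 7 of the 13 (Il6st included), against 25.5% of all probes. Il6st entered the tests only through the G-CSF arrays, and Csf2rb and Csf1r each count with more than 1 probe. For G-CSF against AMD3100, 5 passed, 4 higher and 1 lower (Csf3r), where 30.1% of all probes passed (13.2% higher and 16.9% lower), so that count stands close to the background. Quantile normalization turned the split of passing probes from 3902 higher and 4971 lower to 4452 higher and 2964 lower; for G-CSF against marrow it went from 378 and 156 to 264 and 44 in the authors' normalized table. Blocking by slide gave 7 passes for G-CSF against AMD3100, where 60.5% of all probes passed. Of these 7, 6 were higher (Il6st included), against 24.4% of all probes, and 1 was lower, against 36.1%. The 2 groups did not overlap at 9 of the 13 (Il6st included), against 46.7%. For G-CSF against CWHM-823+tGro-b, 3 passed, all higher, where 0.658% of all probes passed and 0.4% were higher. With the block 5 passed, all higher, against 2.06% of all probes and 1.1% higher. There was no overlap at 6 of the 13 (Il6st included), against 13.6%.

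In the remaining comparisons 0 of the 13 passed in the limma fit. For AMD3100 against marrow 1.72% of all probes passed (13.6% with the slide as a block, where 0 of the 13 passed too), and 0 receptor probes had an unadjusted p under 0.05. The groups did not overlap at 2 of the 13, against 26.3% of all probes. For CWHM-823+tGro-b against marrow the background was 0.39% (1.07% with the block, again with 0 of the 13), 0 had an unadjusted p under 0.05, and 0 did not overlap, against 10.1%. For CWHM-823+tGro-b against AMD3100 it was 0.207% (16.2% with the block, 0 of the 13), 2 had one, both of Csf1r, and 4 did not overlap, against 24.1%. For the mean of all blood groups against marrow it was 0.915%, 4 had one and 0 did not overlap, against 2.22%. With the block 3 passed in that comparison, all higher (both Csf2rb probes, adjusted p = 0.0118 and 0.0160, and Il2rg, adjusted p = 0.0429), where 2.91% of all probes passed and 1.41% were higher. The median difference over the 13 (Il6st included) was 0.38 for G-CSF against marrow, 0.15 for AMD3100 against marrow and -0.06 for CWHM-823+tGro-b against marrow, beside -0.21, 0.07 and -0.04 over all probes. Over 1 probe per gene it was 0.20, 0.13 and -0.05 in the same order. Quantile normalization moved the median of all probes to -0.06 for G-CSF against marrow and from -0.24 to -0.00 for G-CSF against AMD3100.

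**Figure D4:**
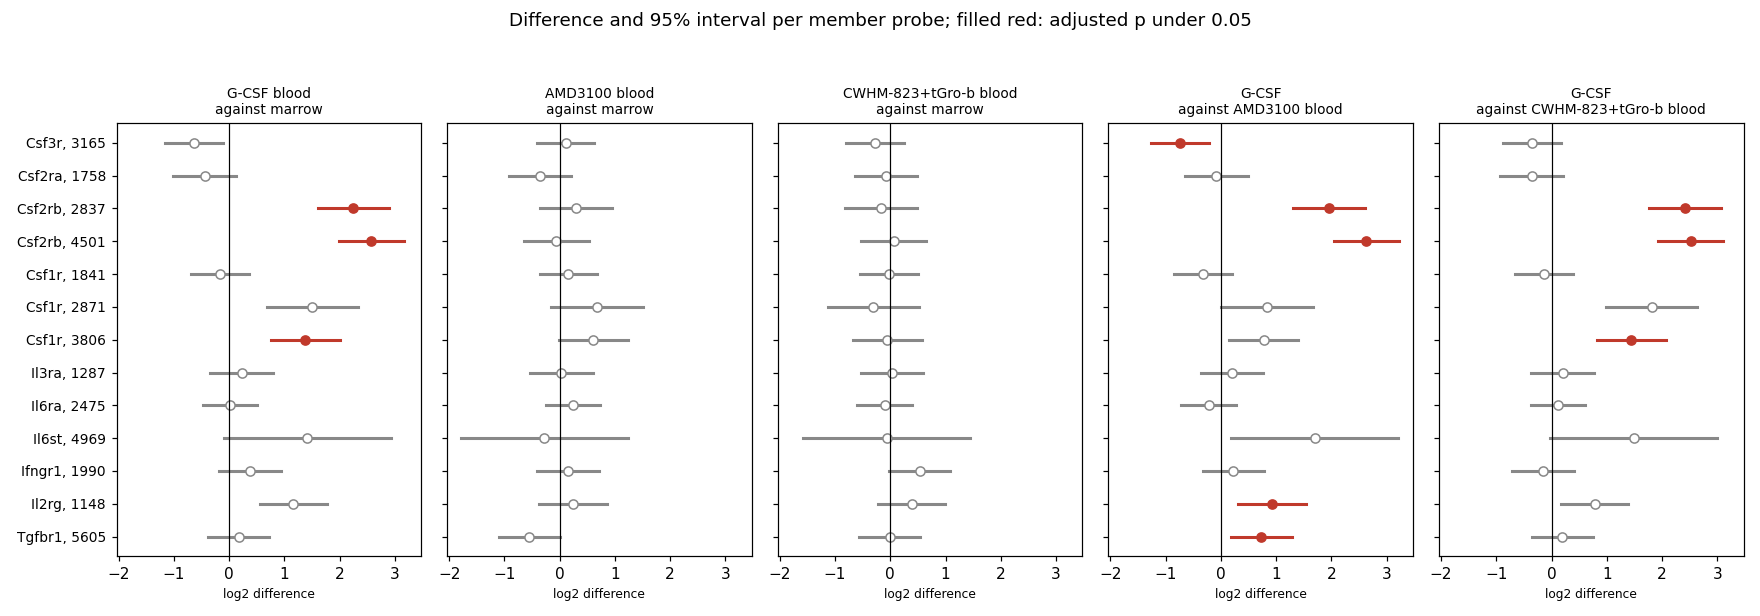
Log2 difference (horizontal axis) with its 95% interval for each receptor probe (vertical axis, gene and transcript position) in 5 comparisons, from the limma fit with n = 3 arrays per group. Filled red points have an adjusted p under 0.05: 3 for G-CSF against marrow, 0 for AMD3100 and for CWHM-823+tGro-b against marrow, 5 for G-CSF against AMD3100 and 3 for G-CSF against CWHM-823+tGro-b.

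Further genes of these pathways were taken from 7 lists of partner chains, other receptors, JAK and STAT proteins, adaptors and phosphatases, SMAD proteins, ligands and receptor-shedding proteases. Of the 91 genes measured on them, each by 1 probe, 6 rose and 1 fell in G-CSF blood against marrow (7.69%, beside 1.81% of all probes). Of the 6 that rose, Csf1, Lif and Il1r1 entered the tests only through blood groups. Blocking by slide gave 16 that rose and 6 that fell for G-CSF against marrow, beside 8.36% and 10% of all probes. For AMD3100 against marrow it gave 6 and 13, beside 13.6% of all probes in either direction. Without the block that comparison gave 2 and 1, beside 1.72%. Among 16 partner chains, 2 rose and 1 fell for G-CSF against marrow without the block. Besides Csf2rb2, Il4ra rose, the alpha chain that pairs with Il2rg to bind IL-4. Its levels were 2.82, 2.82 and 2.82 in marrow and 4.33, 3.78 and 4.42 after G-CSF (1.36 ± 0.25, adjusted p = 0.0187), and its second probe gave 3.27 ± 0.63 (adjusted p = 0.0210). Il7r, the alpha chain that pairs with Il2rg to bind IL-7, fell. It was above background on 2 of 3 marrow arrays, at -2.60 and -2.65, and on 0 G-CSF arrays, at least 2.41-fold lower after G-CSF (the fit's adjusted p = 0.0437). It was at least 6.56-fold lower after G-CSF than after AMD3100, and at least 5.31-fold lower than after CWHM-823+tGro-b. Il7r entered the tests only through the AMD3100 and CWHM-823+tGro-b arrays, so its tests against those groups are not read as support. Il7r also marks lymphoid cells: the summed signal of 10 T cell markers was 4.81 to 8.12 on the G-CSF arrays and 6.10 to 8.96 on the marrow arrays. It was no lower than 8.87 on any AMD3100 array and 7.22 to 10.1 after CWHM-823+tGro-b. Against AMD3100, 6 of 9 B cell, 4 of 8 T cell and 7 of 9 dendritic cell markers that could be tested fell after G-CSF, Il7r being one of the T cell markers. Against CWHM-823+tGro-b, 5 of 9, 1 of 8 and 2 of 9 fell. Over all probes 16.9% fell against AMD3100, and 0.658% passed in either direction against CWHM-823+tGro-b. The part of these cells in the Il7r result was not tested.

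Among 22 other receptors, Il1r1, the signalling receptor of IL-1, rose in G-CSF blood. It entered the tests only through the blood groups where it was seen, so its test is not read as support. Its levels were -3.28, -3.74 and -5.14 in marrow, the last not above background, and -0.46, -0.84 and -1.34 after G-CSF (at least 6.68-fold higher, with the unseen marrow value raised to the lowest signal above background on its array; the fit's adjusted p = 0.00679). None of 11 JAK and STAT genes passed for G-CSF against marrow at its brightest probe in the limma fit (1 had an unadjusted p under 0.05), nor did any of 14 adaptors and phosphatases (2) or 11 SMAD genes (2). Stat3, the main STAT of the G-CSF receptor, gave 0.97 at that probe (adjusted p = 0.0934), while a dimmer one passed (1.47, adjusted p = 0.0127). With the slide as a block 1 gene rose in each of these 3 lists: Stat3 (adjusted p = 0.00934), the phosphatase gene Ptpn6 (1.11, adjusted p = 0.00982) and Smad5 (0.71, adjusted p = 0.0254). Over all probes 8.36% rose with the block. Of 4 shedding proteases Ctsg, cathepsin G of primary granules, rose (2.33 ± 0.31, adjusted p = 0.00226).

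The ligand list gave changes in all 3 blood groups. Csf1, which encodes the ligand of Csf1r, had levels of -3.57, -3.69 and -5.54 in marrow, the last not above background. They were 0.81, 0.77 and 0.76 after G-CSF, -1.21, -0.78 and -1.13 after AMD3100, and 0.20, -0.44 and -1.30 after CWHM-823+tGro-b. Every blood array was above every marrow array. With the unseen marrow value raised in the same way, Csf1 was at least 22.3-fold higher after G-CSF, 6.32-fold after AMD3100 and 9.10-fold after CWHM-823+tGro-b (the fit's adjusted p = 0.000216, 0.0101 and 0.00344). Its dimmer probes gave 1.69 (adjusted p = 0.111) and 3.48 (adjusted p = 0.0289) for G-CSF against marrow. For AMD3100 they gave 0.84 (adjusted p = 0.378) and 1.63 (adjusted p = 0.239), and for CWHM-823+tGro-b 1.50 (adjusted p = 0.464) and 2.98 (adjusted p = 0.144), none of which passed. Lif, a ligand of receptors that use Il6st, was above background on 1 of 3 marrow arrays. On the same terms it was at least 4.62-fold higher after G-CSF, 3.24-fold after AMD3100 and 4.64-fold after CWHM-823+tGro-b (the fit's adjusted p = 0.0107, 0.0352 and 0.0273). These comparisons share the marrow arrays. Of 13 ligands measured, 2 rose and 0 fell in each of the 3, beside 1.81%, 1.72% and 0.39% of all probes that passed. The 2 were Csf1 and Lif. Both entered the tests only through the blood groups where they were seen, so their tests and these counts are not read as support.

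Stat5b, a STAT protein activated downstream of Csf2rb, was lowest on the AMD3100 arrays. Its levels were 1.31, 0.94 and 0.77 in marrow, 1.66, 1.19 and 1.52 after G-CSF, -0.49, -0.21 and 0.23 after AMD3100, and 1.23, 0.94 and 1.04 after CWHM-823+tGro-b. The AMD3100 arrays lay below all 9 others, and Stat5b fell by 1.16 against marrow (adjusted p = 0.0480). It was the 1 of 11 JAK and STAT genes that fell there, and 4 fell with the slide as a block. Over all probes 1.72% passed there in either direction, and 13.6% with the block. For CWHM-823+tGro-b against AMD3100 blood, 0 of the 11 JAK and STAT genes passed, Stat5b included, and 2 rose with the block. In that comparison 0 of the 91 list genes passed, beside 0.207% of all probes. With the block 11 rose and 1 fell, beside 16.2% of all probes. Apart from the block, list genes were not tried in alternative settings. In G-CSF against AMD3100 blood, 25 of the 91 list genes rose and 7 fell (35.2%, beside 30.1% of all probes). With the block 38 rose and 13 fell, beside 24.4% and 36.1% of all probes. Among the 25 that rose without the block were Stat5b (1.61), Jak2 (0.75), Jak1 (0.79) and Stat3 (0.85). Among the 7 that fell were Il7r, at the bound given above, and Il2rb (-1.65), the beta chain of the IL-2 and IL-15 receptors. Against CWHM-823+tGro-b blood, Csf2rb2 (3.23), Il4ra (1.48) and Ctsg (1.81) rose and Il7r fell after G-CSF, 4 of 91 (4.40%, beside 0.658% of all probes). Il7r entered the tests only through the AMD3100 and CWHM-823+tGro-b arrays, so its part in the counts against those groups is not read as support.

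**Figure D5:**
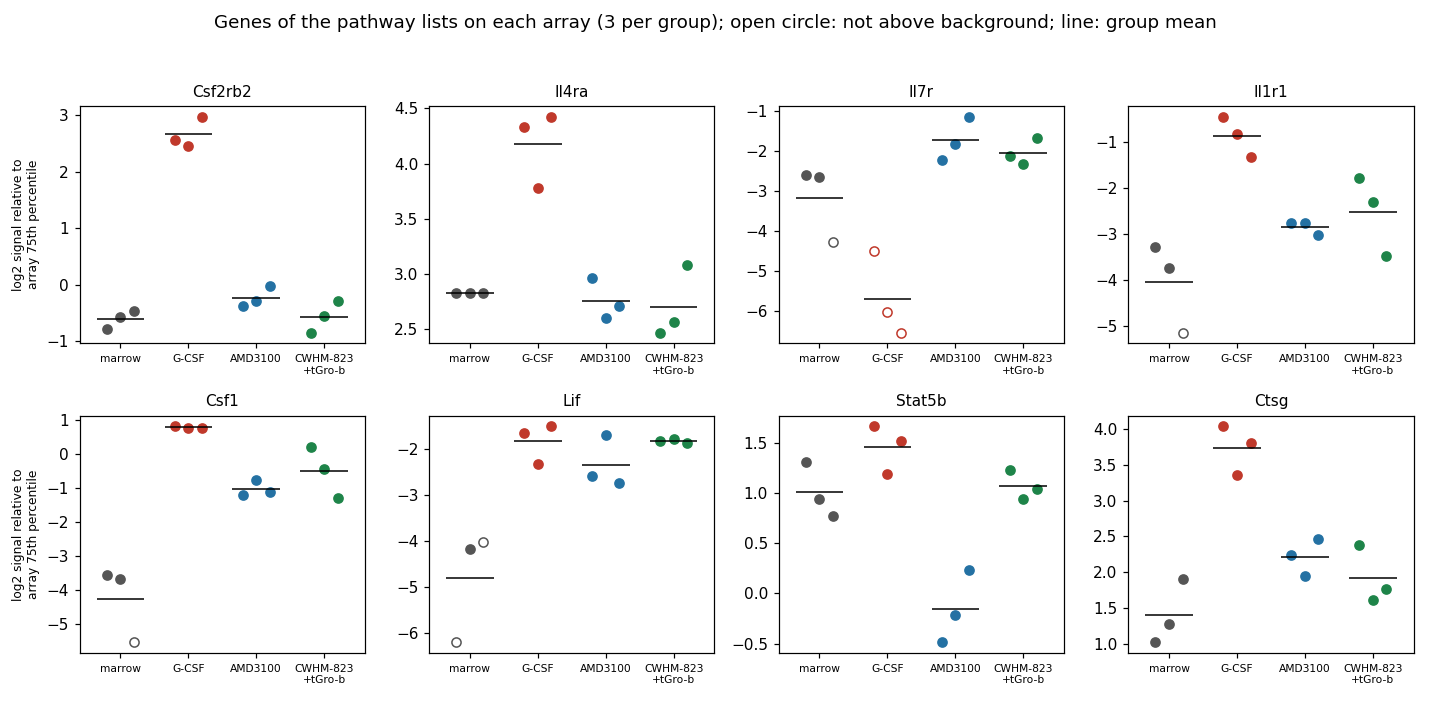
Level (vertical axis, log2 signal relative to the array's 75th percentile) of 8 genes of the pathway lists on the 3 arrays of each group (horizontal axis). Open circles are not above background and lines are group means. Csf2rb2, Il4ra, Il1r1 and Ctsg are highest on the G-CSF arrays, Il7r is above background on 0 of them, Csf1 is above marrow on all 9 blood arrays, and Stat5b is lowest on the AMD3100 arrays.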

How the data were processed

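RNA of LSK cells was measured on 12 one-colour Agilent arrays. Per the labels, RNA was amplified before labelling. The deposited scanner values are an intensity per spot (red processed signal), which the authors extracted with Agilent Feature Extraction 11.5.1.1, per the file headers, with background subtracted and no scaling between arrays. The authors' own normalized intensity, also deposited, covers 30354 probes; its column medians were 938 to 945, and how it was normalized is not given in the sources used here. Outlier spots were dropped and replicate spots averaged in log2. Each array's 75th percentile was subtracted. Probes had to exceed background on every array of some group, which left 29497. limma 3.58.1 (R 4.3.3) was fitted to all 12 arrays with 1 mean per group (8 residual and 3.87 prior degrees of freedom), with 2-sided tests and Benjamini-Hochberg adjustment over all probes of a comparison; an adjusted p under 0.05 passed. On simulated data for the comparison of G-CSF with marrow (29497 probes), 8% of changes of log2 size 1 and 55% of size 2 were recovered. That simulation changed few probes and drew noise independently for each array, so it did not hold the pairing of arrays by slide. Its shares need not hold for the real comparison.

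The slide carries the same number as the replicate, and each of the 3 slides held 1 array of every group. Deviations from the group means correlated at 0.242 to 0.598 in the 18 pairs of arrays with the same number and at -0.436 to 0.033 in the 36 other pairs, so the numbers pair the arrays. For receptor probes, blocked values are printed where the block changes a call, and for lists as counts. Nothing says whether a group's arrays stem from different mice, and p-values speak for the spread among these arrays alone, which may be technical. Grouping followed the individual sample labels, because the protocols also list treatments given to none of these samples. A list gene stands for its brightest kept probe on the gene's chromosome. All receptor genes are named; of each list, up to 4 genes that passed with the smallest p are named per comparison, and the 3 genes (5 for Csf3r) with the highest r. Genes shown with all values, and the motifs, were chosen after values were seen. Receptors and lists were chosen with earlier results of these data known. Positions are in mm9.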

Additional observations from a re-analysis of the deposited data

Results flagged for a closer look

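For 8 results, the level after G-CSF differed from that after another mobilizing treatment, since the tested difference between the blood groups passed (limma, n = 3 arrays per group, values in log2). The treatments differ in time as well as in agent, and these cannot be told apart. Csf2rb was higher after G-CSF than after AMD3100 by 1.95 at its probe at 2837 and by 2.63 at 4501, and higher than after CWHM-823+tGro-b by 2.42 and 2.51. Il2rg exceeded its AMD3100 level by 0.92 and Tgfbr1 (probe at 5605) by 0.73. The Csf1r probe at 3806 exceeded its CWHM-823+tGro-b level by 1.44, and the Csf3r probe, which shares letters with probes of other names, differed from its AMD3100 level by -0.74. Because 30.1% of all probes passed for G-CSF against AMD3100, a pass there sets a gene apart little. The Csf2rb calls held in every alternative setting. The others did not: Il2rg was kept in 14 of 22 settings, Csf3r in 12 of 22, Tgfbr1 in 9 of 22 and Csf1r in 7 of 21.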

How the results depend on the processing

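Over the alternatives, 1878 of 1967 receptor probe results stayed on the same side of the threshold, 51 lost and 38 gained a pass. Of the 1967, 0 that passed in either fit changed sign. Among those that passed in neither, 68 changed sign, with a main value of size up to 0.36. The Csf2rb calls held in all 22 (probe at 2837) or 21 (4501) settings. Passing receptor probes for G-CSF against marrow (3) became 5 with normexp background correction, 5 with only probes above background on all arrays, 5 with an intensity trend, 6 with the slide as a replicate block, 6 with quantile normalization and the block (added after seeing the data) and 1 with 1 probe per gene. For G-CSF against AMD3100 (5) there were 3 in the authors' table, 2 with only the groups compared and 2 to 5 when an array was left out. For G-CSF against CWHM-823+tGro-b (3) there were 5 with the block, 5 with quantile and block, and 1 with 1 probe per gene. All blood against marrow went from 0 to 3 with the block, with or without quantile normalization. Quantile with block gave 1 for AMD3100 against marrow (0) and 1 for CWHM-823+tGro-b against AMD3100 (0). Beside the calls printed in the report, the block changed no other call of a receptor probe.

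Passing probes over the whole array, in percent of those tested, moved more. With the slide as a replicate block they were 18.4 for G-CSF against marrow (1.81 without), 13.6 for AMD3100 against marrow (1.72), 1.07 for CWHM-823+tGro-b against marrow (0.39), 2.91 for all blood (0.915), 60.5 for G-CSF against AMD3100 (30.1), 2.06 for G-CSF against CWHM-823+tGro-b (0.658) and 16.2 for CWHM-823+tGro-b against AMD3100 (0.207). With quantile and block, in the same order, they were 10.7, 18.4, 1.07, 2.84, 51.4, 1.51 and 18.8. The authors' table gave 1.01, 0.603, 0.343 and 0.0132 for the first, the fourth, the sixth and the last. No filter on dim probes gave 1.09, 0.625, 0.224, 0.477, 0.41 and 0.105 for all but the fifth. Only the groups compared gave 1.05, 0.614, 16.1, 0.264 and 0.0339 for the first, the second, the fifth, the sixth and the last. For AMD3100 against marrow, quantile gave 3.34 and normexp 0.81. For CWHM-823+tGro-b against AMD3100, quantile gave 0.512, normexp 0.0339, probes above background everywhere 0.0464 and the trend 0.105. Leaving out 1 array gave, in that order, 0.82 (without marrow 2) to 2.92, 0.363 (without marrow 1) to 1.75, 0.224 to 0.366, 0.403 to 0.864, 6.26 (without G-CSF 1) to 40.7, 0.342 to 0.77 and 0.0339 to 0.431. The causes were not tested. In the simulation of G-CSF against marrow, which changed few probes and did not hold the pairing by slide, 8% of changes of log2 size 1 were recovered.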
